A study of Mus musculus with 9 samples.

Results

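The cardiac myosin motor was examined in 4 hearts from mice carrying the staggerer allele on both chromosomes (RORasg/sg) and 5 hearts from wild-type (WT) mice. The 8 genes chosen by name were the heavy chains Myh6, Myh7 and Myh7b, the light chains Myl2, Myl3, Myl4 and Myl7, and Mybpc3, the gene of cardiac myosin-binding protein C. Probes were taken where their accession led to one of these symbols, and 11 of the 41174 non-control probes did so, covering 7 of the 8 genes. No probe led to Myh7b, and it is not analysed here. All mice were untreated males labelled C57BL/6, 3 to 4 months old, and the RNA of each heart went onto its own single-colour Agilent array. The staggerer allele is a deletion in Rora, which encodes the nuclear receptor RORalpha, and is present in all cells, so effects inside and outside the heart are not separated by this design. The study compared the genotypes in work on RORalpha and cardiac hypertrophy.

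Each myosin motor is made of a pair of heavy chains, each holding an essential and a regulatory light chain in its neck. In the adult mouse ventricle the fast alpha heavy chain, encoded by Myh6, predominates, whereas the slower beta chain, encoded by Myh7, predominates before birth and returns in many forms of hypertrophy. Myl2 and Myl3 encode the regulatory and essential light chains of the ventricle, and Myl7 and Myl4 their counterparts in the atria. Myosin-binding protein C lies along the thick filament and restrains the motors.

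The Myh6 and Myh7 genes are neighbours on chromosome 14, and all 3 heavy chain genes carry a microRNA within them. The mature microRNAs are shown because they derive from the same primary transcripts as the heavy chains, in lower case with the seed (bases 2 to 8) in capitals, from RefSeq on build GRCm38.p6. MiR-208a lies within Myh6, miR-208b within Myh7 and miR-499 within Myh7b.
miR-208a-3p, chr14:54949072-54949093, reverse strand: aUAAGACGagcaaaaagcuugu
miR-208b-3p, chr14:54975710-54975731, reverse strand: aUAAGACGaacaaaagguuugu
miR-499-5p, chr2:155622893-155622913, forward strand: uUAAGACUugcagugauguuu
MiR-208a-3p and miR-208b-3p shared the seed and differed at 3 of 22 bases, and the seed of miR-499-5p differed from theirs at 1 of 7 bases. Their levels were not analysed here, as 0 probes were named for them.

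The start regions of the genes in the heavy chain and regulatory light chain pairs are shown because the report turns on how these pairs moved against each other. Each window runs from 250 bases before to 50 bases after a RefSeq gene start (300 bases, GRCm38.p6) and reads 5′ to 3′ along the gene. Capitals mark AGGTCA, the half-site that RORalpha and other nuclear receptors recognise, and CATTCC, the MCAT element that TEAD factors recognise, each searched on both strands and therefore also printed as TGACCT or GGAATG.
Myh6, chr14:54966558-54966857, reverse strand: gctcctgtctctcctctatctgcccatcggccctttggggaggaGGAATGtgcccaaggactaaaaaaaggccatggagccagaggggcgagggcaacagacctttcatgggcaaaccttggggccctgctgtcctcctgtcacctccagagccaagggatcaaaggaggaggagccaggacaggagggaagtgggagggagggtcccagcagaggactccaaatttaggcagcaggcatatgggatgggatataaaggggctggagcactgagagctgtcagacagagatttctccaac
Myh7, chr14:54994577-54994876, reverse strand: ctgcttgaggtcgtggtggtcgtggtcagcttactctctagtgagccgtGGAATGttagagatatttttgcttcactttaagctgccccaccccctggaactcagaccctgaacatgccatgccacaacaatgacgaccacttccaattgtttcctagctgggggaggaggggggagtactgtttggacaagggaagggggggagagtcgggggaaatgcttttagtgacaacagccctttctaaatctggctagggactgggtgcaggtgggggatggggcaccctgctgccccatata
Myl2, chr5:122092939-122093238, forward strand: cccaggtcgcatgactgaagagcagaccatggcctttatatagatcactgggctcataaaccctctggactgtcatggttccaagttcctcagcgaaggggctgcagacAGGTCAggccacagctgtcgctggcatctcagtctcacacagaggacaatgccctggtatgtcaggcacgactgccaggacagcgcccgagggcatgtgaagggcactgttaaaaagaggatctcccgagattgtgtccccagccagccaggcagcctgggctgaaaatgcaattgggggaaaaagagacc
Myl7, chr11:5898733-5899032, reverse strand: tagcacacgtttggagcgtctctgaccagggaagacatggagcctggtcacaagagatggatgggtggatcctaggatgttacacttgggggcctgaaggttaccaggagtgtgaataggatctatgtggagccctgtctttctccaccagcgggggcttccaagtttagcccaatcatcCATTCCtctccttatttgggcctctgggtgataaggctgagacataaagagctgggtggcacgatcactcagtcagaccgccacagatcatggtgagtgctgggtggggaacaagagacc
CATTCC stood 206 bases before the Myh6 start and 201 bases before this Myh7 start, both on the opposite strand, and 70 bases before the Myl7 start. AGGTCA stood 141 bases before this Myl2 start. A further window of Myl2 and one of Myh7 held neither motif. AGGTCA was present in 16.3% of all 32851 windows and in 2 of the 10 windows of the 8 genes (Myl2 and Myh7b). CATTCC was present in 14.7% of all windows and in 4 of the 10 (Myh6, Myh7, Myl3 and Myl7). A match describes these letters only and does not show that a factor binds there.

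The arrays differed in brightness, which bears on every value given here. The 75th percentile of processed signal lay between 264 and 773 in RORasg/sg hearts and between 436 and 684 in WT hearts. RORasg/sg 2, 3 and 4 and WT 4 were under 500 and are called the dimmer arrays, and the other 5 arrays the brighter ones, a division known from earlier results of these data. Levels are given as log2 of the processed signal minus the 75th percentile of the array. On this scale the median log2 difference of all 27778 genes, RORasg/sg minus WT, was 0.41 rather than 0. Here and below, all genes include accessions without a gene name, each counted as 1 gene. Rora read 0.083, -2.71, -1.01 and -1.99 in RORasg/sg hearts 1 to 4 and between 1.51 and 3.29 in WT hearts on the probe with the highest mean, without overlap, a log2 difference of -4.13 (SE 0.610, limma adjusted p = 0.224). A second Rora probe differed by -5.34 without overlap, and the groups overlapped on another and dim one (-1.08). The hearts carried heart muscle RNA, with all 10 cardiomyocyte markers, such as Tnnt2 and Actc1, well above background on all 9 arrays.

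The 7 measured genes did not move as a block. Mean signal was lower in RORasg/sg hearts for Myh6, Myh7, Myl2 and Myl3 and higher for Myl4, Myl7 and Mybpc3, 4 and 3 genes, where 33.4% and 66.6% of all genes lay on those sides. In limma, 0 of the 7 passed an adjusted p of 0.05 over all genes, where 0.0036% of genes passed. At an unadjusted p under 0.05, Myl7 was higher and Myh6, Myh7 and Myl2 were lower, that is 1 and 3 of 7 genes, where 4.94% and 6.62% of all genes lay on those sides. The groups overlapped on all 11 probes, whereas 1.12% of all genes had every RORasg/sg heart above every WT heart and 1.71% had every one below. The median log2 difference of the 7 genes was -0.54. All 11 probes were well above background on all 9 arrays, so no value here is a bound. In whole-heart RNA, fewer cells of a type and less RNA per cell cannot be told apart.

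**Figure D1:**
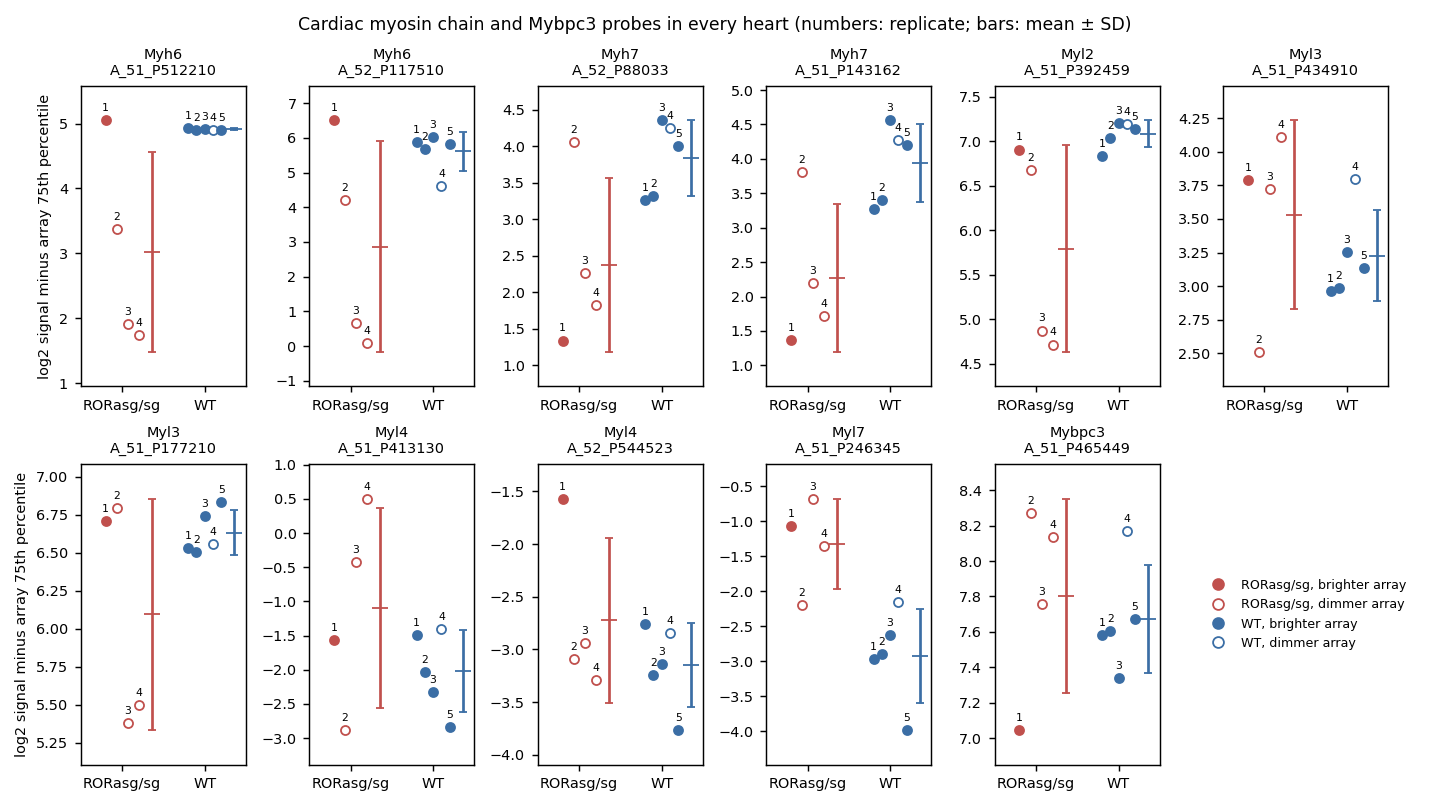
Log2 signal minus the 75th percentile of the array for each of the 11 probes, with RORasg/sg hearts at left and WT hearts at right of each panel. Points are hearts numbered by replicate, open points are dimmer arrays, and bars are mean ± SD (n = 4 and n = 5). RORasg/sg 3 and 4 lie lowest for Myh6 and Myl2, and RORasg/sg 1 lies highest for Myh6 and lowest for Myh7.

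Myh6, the alpha heavy chain, was spread widely among the RORasg/sg hearts. On its brighter probe, A_52_P117510, RORasg/sg hearts 1 to 4 read 6.50, 4.21, 0.65 and 0.10. WT hearts 1 to 5 read 5.89, 5.69, 6.03, 4.62 and 5.83 on this probe. RORasg/sg 1 was thus above every WT heart, and RORasg/sg 2, 3 and 4 were below every WT heart. The level averaged 2.87 ± 3.03 in RORasg/sg hearts (SD, n = 4) and 5.61 ± 0.569 in WT hearts (SD, n = 5). The log2 difference of -2.74 (SE 1.07) had a limma adjusted p of 0.418. It was -1.06 with the brightness of each array as a covariate and -1.82 without RORasg/sg 4.

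The second Myh6 probe, A_51_P512210, gave the same order of the RORasg/sg hearts over a narrower span. It read 5.05, 3.38, 1.91 and 1.75 in RORasg/sg hearts 1 to 4, and 4.93, 4.91, 4.92, 4.90 and 4.90 in WT hearts 1 to 5. The WT hearts lay within 0.033 of each other on this probe, against 1.42 on the other, and the RORasg/sg hearts spanned 3.30 and 6.40. WT 4 stood apart from the other WT hearts on the brighter probe and not on this one. The log2 difference was -1.89 (SE 0.590, limma adjusted p = 0.320 over 36408 probes).

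Myh7, the beta heavy chain, had a lower mean in RORasg/sg hearts and a different order among them. On A_51_P143162 it read 1.37, 3.80, 2.20 and 1.72 in RORasg/sg hearts 1 to 4. WT hearts 1 to 5 read 3.28, 3.40, 4.56, 4.27 and 4.21. RORasg/sg 1, which was highest for Myh6, was lowest for Myh7, and RORasg/sg 2 was the single RORasg/sg heart within the WT range. The means were 2.27 ± 1.08 in RORasg/sg hearts (SD, n = 4) and 3.94 ± 0.569 in WT hearts (SD, n = 5), 3.18-fold less in RORasg/sg. The log2 difference was -1.67 (SE 0.525, limma adjusted p = 0.385). The other probe, A_52_P88033, differed by -1.47 (SE 0.545) with the same heart lowest and the same heart within the WT range. The lower mean of Myh7 was already known for these data and is no independent result.

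The alpha and beta heavy chains are closely related in sequence, and the probe sequences were not used here, so the signal of one probe may include RNA of the other gene.

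Myl2, the regulatory light chain of the ventricle and a bright probe on every array, followed Myh6 in RORasg/sg 3 and 4. It read 6.91, 6.68, 4.88 and 4.72 in RORasg/sg hearts 1 to 4, and 6.84, 7.04, 7.21, 7.19 and 7.14 in WT hearts 1 to 5. RORasg/sg 1 lay within the WT range and the other 3 below it. The log2 difference was -1.29 (SE 0.440, limma adjusted p = 0.399), with an SD of 1.16 in RORasg/sg hearts (n = 4) and 0.151 in WT hearts (n = 5).

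Myl3, the essential light chain of the ventricle, was also lowest in RORasg/sg 3 and 4 on its bright probe. A_51_P177210 read 6.71, 6.79, 5.38 and 5.50 in RORasg/sg hearts 1 to 4, and 6.53, 6.50, 6.74, 6.56 and 6.83 in WT hearts 1 to 5. RORasg/sg 1 and 2 lay within the WT range, and RORasg/sg 3 and 4 below it. Its log2 difference was -0.54 (SE 0.331, limma adjusted p = 0.421), and -0.30 without RORasg/sg 3 or -0.34 without RORasg/sg 4. The dimmer probe A_51_P434910 gave the opposite sign, 0.31 (SE 0.405), with RORasg/sg 4 the highest of all hearts at 4.11 and RORasg/sg 2 the lowest at 2.51.

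Myl7, the regulatory light chain of the atria, had the higher mean in RORasg/sg hearts. It read -1.07, -2.20, -0.67 and -1.36 in RORasg/sg hearts 1 to 4, and -2.96, -2.90, -2.63, -2.15 and -3.99 in WT hearts 1 to 5. Of the RORasg/sg hearts, 1, 3 and 4 lay above every WT heart, and RORasg/sg 2 lay between WT 4 and the other WT hearts. The means were -1.33 ± 0.647 in RORasg/sg hearts (SD, n = 4) and -2.93 ± 0.674 in WT hearts (SD, n = 5), 3.03-fold more in RORasg/sg. The log2 difference of 1.60 (SE 0.487) had a limma adjusted p of 0.378 and was 1.19 above the median of all genes. In the processed signal before scaling, Myl7 read 368, 63.5, 245 and 103 in RORasg/sg hearts 1 to 4, and 87.7, 86.0, 102, 98.3 and 34.5 in WT hearts 1 to 5. RORasg/sg 4 was thus level with the highest WT hearts before scaling, and RORasg/sg 1 and 3 were above them.

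Myl4, the essential light chain of the atria and of the embryonic ventricle, was less even. On A_51_P413130 it read -1.56, -2.88, -0.42 and 0.50 in RORasg/sg hearts 1 to 4, and -1.49, -2.03, -2.32, -1.40 and -2.83 in WT hearts 1 to 5. RORasg/sg 3 and 4 were above every WT heart and RORasg/sg 2 was the lowest of all. The log2 difference was 0.92 (SE 0.648, limma adjusted p = 0.437), with 0.39 when RORasg/sg 4 was left out and 1.52 when RORasg/sg 2 was. On the dimmer probe A_52_P544523 it was 0.43 (SE 0.464), and there RORasg/sg 1, at -1.57, was the heart above every WT heart while RORasg/sg 3 and 4 lay within the WT range.

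Mybpc3 stayed closest to the WT level. It read 7.05, 8.27, 7.76 and 8.14 in RORasg/sg hearts 1 to 4, and 7.58, 7.60, 7.34, 8.17 and 7.68 in WT hearts 1 to 5. RORasg/sg 1 was below and RORasg/sg 2 above every WT heart. The log2 difference of 0.13 (SE 0.272, limma adjusted p = 0.775) lay 0.28 below the median of all genes, recorded as -0.28, and its sign turned with quantile scaling (-0.35) and in the unscaled values (-0.44).

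The division of the arrays changed most of these differences. Without RORasg/sg 1, Myh6 fell by 3.95 (limma adjusted p = 0.0131), Myl2 fell by 1.66 (0.0178) and Myl7 rose by 1.51 (0.0368), and the other 4 genes did not pass. In that comparison 37.4% of all genes were called, 8.89% lower and 28.6% higher, so 2 genes called lower and 1 called higher out of 7 are to be read against those shares. In the 5 brighter arrays, which hold RORasg/sg 1 alone from its group, Myh7 was called at -2.49 (limma adjusted p = 0.0274, where 4.28% of genes were called, 2.99% lower and 1.29% higher), and Myh6 had the opposite sign, 0.64. The other brighter-array differences were -0.15 for Myl2, 0.057 for Myl3, 0.61 for Myl4, 2.05 for Myl7 and -0.50 for Mybpc3. The median of all genes was -0.34 there, so Myl2 lay above it and Mybpc3 below it. The test in these 5 arrays assumes that the lone RORasg/sg heart varied as the WT hearts did. With arrays weighted by how closely they followed their group in these same values, 6 of the 7 genes passed. So did 54.5% of all genes (16.7% lower and 37.8% higher). In the 4 dimmer arrays, with WT 4 alone from its group, the log2 differences were -2.96 for Myh6, -1.70 for Myh7, -1.77 for Myl2, -0.67 for Myl3, 0.47 for Myl4, 0.74 for Myl7 and -0.12 for Mybpc3. The median of all genes there was 0.50, so Myl7 and Myl4 lay near it.

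Slides 1 and 2 each held 2 RORasg/sg and 2 WT hearts, and slide 3 held WT 5. Taken slide by slide, 1 then 2, log2 differences were -0.43 and -4.94 for Myh6, -0.75 and -2.46 for Myh7, and -0.15 and -2.41 for Myl2. They were 1.30 and 1.37 for Myl7, and -0.46 and 1.90 for Myl4. The median of all genes was 0.058 on slide 1 and 0.68 on slide 2, so Myl7 lay further above it on slide 1. Slide 2 held RORasg/sg 3 and 4. Those arrays were dim, with 75th percentiles of 391 and 264. With brightness as a covariate over all 9 arrays, the log2 differences were -1.06 for Myh6, -2.18 for Myh7, -0.88 for Myl2, -0.33 for Myl3, 0.69 for Myl4, 1.74 for Myl7 and -0.34 for Mybpc3. Myh6 and Myl2 were thus smaller in size than without the covariate, Myh7 and Myl7 were not, and 0 of the 7 passed over all genes. The median of all genes with the covariate was 0.0099.

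**Figure D2:**
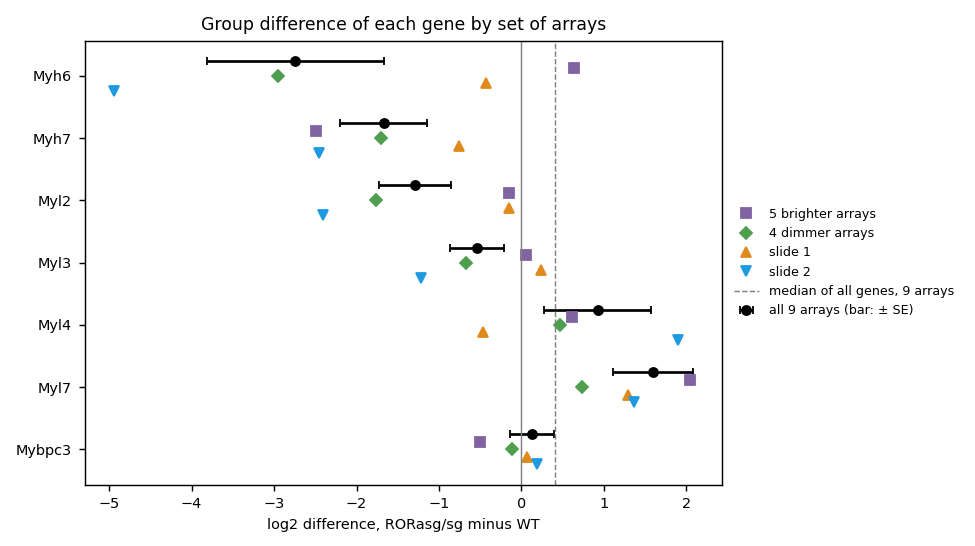
Log2 difference of each gene, RORasg/sg minus WT, over all 9 arrays (black, ± SE), in the 5 brighter and 4 dimmer arrays and within slides 1 and 2. Solid and dashed lines mark 0 and the median of all genes over all 9 arrays (0.41). That median was -0.34 in the brighter arrays, 0.50 in the dimmer arrays, 0.058 on slide 1 and 0.68 on slide 2, which are not drawn. Myl7 lies right of 0 and Myh7 left of 0 in every set shown, while Myh6 runs between -4.94 and 0.64.

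Balances were taken within each array as the difference of 2 log2 signals, so that a constant scaling of the array cancels in them. The value itself has no meaning as a ratio of transcripts, since the probes differ, and the comparison is between hearts. An array difference that changes with signal does not cancel, and Myl2 was bright and Myl7 dim. The median level of all genes was -2.13, -1.70, -1.51 and -1.51 in RORasg/sg hearts 1 to 4. In WT hearts it lay between -2.04 and -1.78. The part of such differences in the balances was not tested. Of 3 balances tested, the ventricular to atrial balance of the regulatory light chains differed between the groups. Myl2 minus Myl7 was 7.98, 8.88, 5.55 and 6.07 in RORasg/sg hearts 1 to 4, and 9.81, 9.94, 9.84, 9.34 and 11.13 in WT hearts 1 to 5. Every RORasg/sg heart lay below every WT heart. Among single genes 1.71% did so, and the share among pairs of genes was not counted. The means were 7.12 ± 1.57 in RORasg/sg hearts (SD, n = 4) and 10.01 ± 0.665 in WT hearts (SD, n = 5). The log2 difference was -2.89, or a Myl2 to Myl7 signal ratio 7.40-fold less in RORasg/sg. The two-sided p of an exact permutation test was 0.0159, the smallest that these group sizes allow, and 0.0476 after Benjamini-Hochberg adjustment over the 3 balances.

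On the scaled values, RORasg/sg 3 and 4 were below every WT heart for Myl2 and above every one for Myl7. RORasg/sg 1 was outside the WT range for Myl7 only, and RORasg/sg 2 for Myl2 only. This division between the 2 genes depends on the scaling, although the balance does not. In the processed signal before scaling, RORasg/sg 4 was level with the highest WT hearts for Myl7 (103). For Myl2 it was far below every WT heart there (6959 against 63773 or more). The balance differed by -2.20 in brighter arrays and by -2.51 in dimmer ones, by -1.44 within slide 1 and by -3.78 within slide 2. With any one heart left out it lay between -3.47 and -2.36. Its exact permutation p was then the smallest those sizes allow, 0.0286 or 0.0357, and 0.0857 to 0.107 after adjustment over the 3 balances. Each of the 2 genes has 1 probe, so no second probe checks this balance.

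The essential light chain balance was less clear. Myl3 minus Myl4 was 8.27, 9.68, 5.80 and 4.99 in RORasg/sg hearts 1 to 4, and 8.02, 8.53, 9.07, 7.96 and 9.67 in WT hearts 1 to 5. RORasg/sg 3 and 4 were below every WT heart, RORasg/sg 1 was within the WT range and RORasg/sg 2 just above it. The log2 difference was -1.46 (exact two-sided permutation p = 0.254, 0.381 after adjustment). It was 0.70 within slide 1 and -3.12 within slide 2. On the second probes it was -0.12.

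The alpha to beta heavy chain balance was the most scattered of the 3 among RORasg/sg hearts. Myh6 minus Myh7 was 5.13, 0.41, -1.55 and -1.62 in RORasg/sg hearts 1 to 4, and 2.61, 2.29, 1.47, 0.34 and 1.62 in WT hearts 1 to 5. RORasg/sg 1 stood above every WT heart, RORasg/sg 2 within the WT range and RORasg/sg 3 and 4 below it. The means were 0.59 ± 3.17 in RORasg/sg hearts (SD, n = 4) and 1.67 ± 0.876 in WT hearts (SD, n = 5), a log2 difference of -1.07 (exact two-sided permutation p = 0.460, 0.460 after adjustment). Its sign turned in the brighter arrays (3.13) and within slide 1 (0.32), against -2.49 within slide 2. On the second probes of both genes it was 3.71, -0.68, -0.36 and -0.073 in RORasg/sg hearts 1 to 4, and 1.67, 1.58, 0.56, 0.64 and 0.90 in WT hearts 1 to 5. RORasg/sg 1 was again highest, but RORasg/sg 2 was now lowest, and RORasg/sg 2, 3 and 4 were all below every WT heart. The log2 difference on these probes was -0.42.

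**Figure D3:**
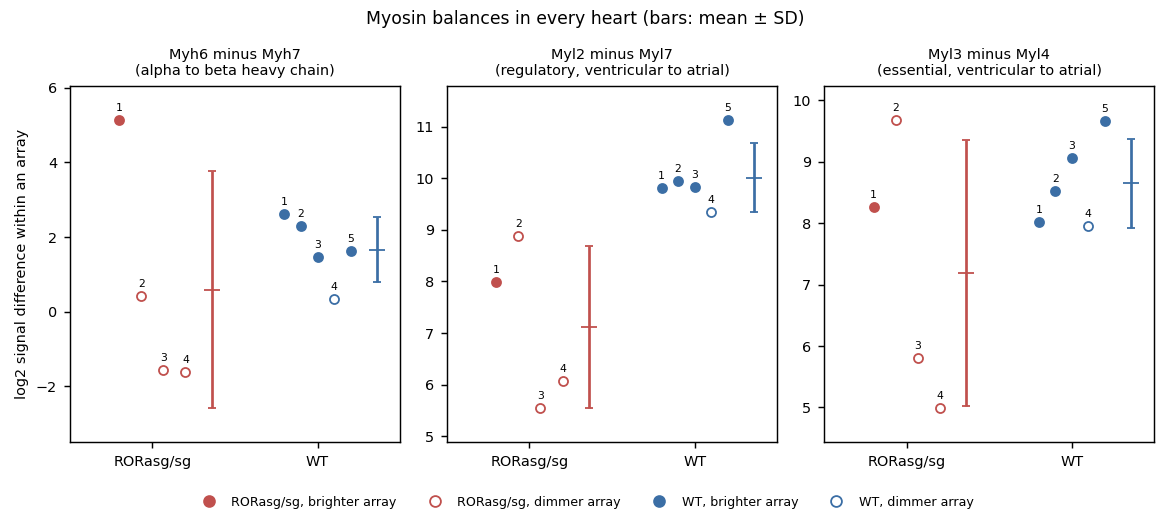
Within-array log2 differences for Myh6 minus Myh7, Myl2 minus Myl7 and Myl3 minus Myl4, with RORasg/sg hearts at left and WT hearts at right of each panel. Points are hearts numbered by replicate, open points are dimmer arrays, and bars are mean ± SD (n = 4 and n = 5). For Myl2 minus Myl7 the highest RORasg/sg heart (8.88) lies below the lowest WT heart (9.34).

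Other chamber markers did not follow Myl7 and Myl4 as a set. Of all genes, 66.6% had the higher and 33.4% the lower mean in RORasg/sg hearts. All 12 atrial markers were measured, with 7 higher and 5 lower in mean signal in RORasg/sg hearts and a median log2 difference of 0.38, near the 0.41 of all genes. Their mean level lay between -1.22 and -0.74 in RORasg/sg hearts and between -1.05 and -0.48 in WT hearts. Nppa, which encodes the atrial natriuretic hormone, differed by -1.20 (SE 0.434) on its brighter probe and by 1.22 (SE 0.648) on its other. Bmp10, an atrial growth factor, differed by 1.21 (SE 0.552) and Mybphl, a myosin-binding protein H-like gene of the atria, by 1.12 (SE 0.639), though by -0.65 in the brighter arrays. Dkk3 differed by 1.28, Pam, a peptide-amidating enzyme, by -1.82 and Kcnj3, an atrial potassium channel subunit, by -1.70. Stard10 differed by -1.59 (SE 0.526), without overlap of the groups. Sln, the atrial calcium pump regulator sarcolipin, cleared background in 3 RORasg/sg and 4 WT hearts and differed by 0.58 (SE 0.612).

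All 8 ventricular markers were measured, with 3 higher and 5 lower and a median of -0.94. Their mean level lay between 1.57 and 2.77 in RORasg/sg hearts and between 2.57 and 3.12 in WT hearts. Hrc, a calcium-binding protein of the sarcoplasmic reticulum, differed by -2.59, and Pln, the calcium pump inhibitor phospholamban, by -1.46. Hey2 and Irx4, ventricular transcription factors, differed by -1.14 and -1.06, and Gja1, a gap junction protein, by -0.82. Hey2 cleared background in 3 RORasg/sg hearts and all 5 WT hearts, and WT 4 (-4.94) lay far below the other WT hearts. Kcnip2 and Kcnd2, subunits of a potassium channel, differed by 1.20 and 0.28 (-0.60 on the other Kcnd2 probe), and Fhl2 by 0.61. The part of atrial or ventricular tissue content in the light chain values was not tested. None of these 20 listed markers passed over all genes in limma.

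**Figure D4:**
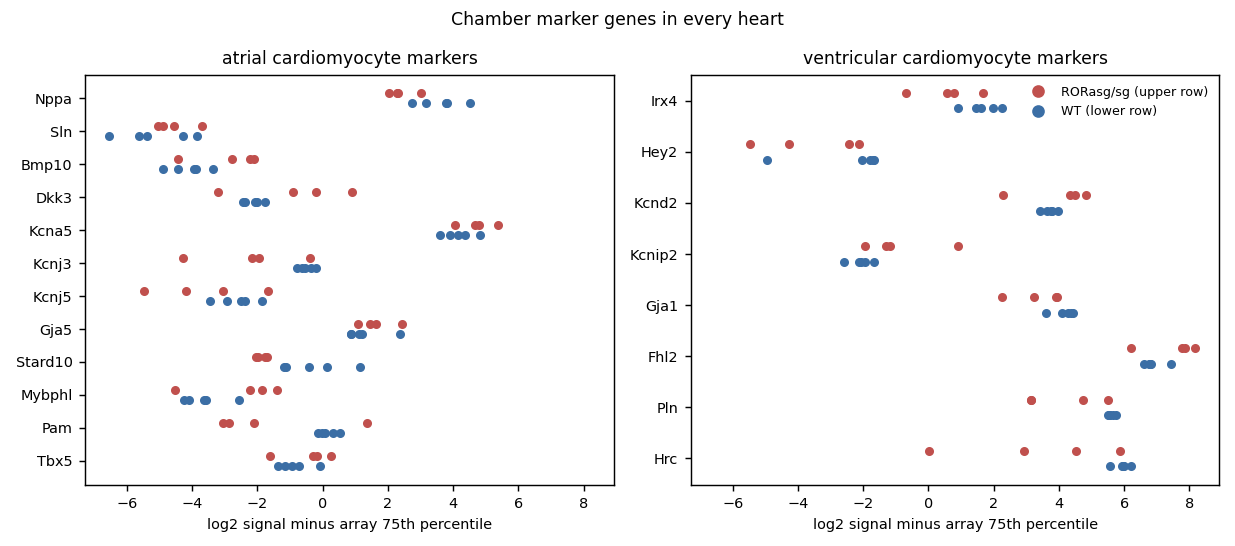
Log2 signal minus the 75th percentile of the array for 12 atrial (left) and 8 ventricular (right) marker genes, 1 point per heart, RORasg/sg in the upper and WT in the lower row of each gene. The atrial genes do not share a direction, with Nppa and Stard10 lower and Bmp10 and Mybphl higher in mean signal in RORasg/sg hearts.

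Markers of other cell types also varied, as the mean level of each list per heart shows. The cardiomyocyte list lay between 5.07 and 6.28 in RORasg/sg hearts and between 5.99 and 6.21 in WT hearts, lowest in RORasg/sg 3 and 4. Endothelial markers lay between 0.65 and 2.40 in RORasg/sg hearts and between 1.98 and 2.33 in WT hearts. Fibroblast markers lay between 1.92 and 2.90 in RORasg/sg hearts and between 1.68 and 2.20 in WT hearts. Smooth muscle and pericyte markers lay between 2.08 and 3.13 in RORasg/sg hearts and between 2.14 and 2.79 in WT hearts. Skeletal muscle markers lay between -1.63 and 0.36 in RORasg/sg hearts and between -0.28 and 0.20 in WT hearts. Neuron and Schwann cell markers lay between -2.98 and -0.36 in RORasg/sg hearts and between -2.40 and -1.17 in WT hearts. For macrophage, blood and adipocyte markers the RORasg/sg hearts lay between -0.71 and 0.10, -0.52 and 0.40, and -0.84 and 0.051, against -0.50 and 0.14, 0.067 and 0.44, and -1.07 and 0.36 in WT hearts. Their part in the myosin values was not tested.

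Of 94 other measured genes that build, switch or regulate myosin, 0 passed over all genes in limma. The counts of higher and lower means in their lists, here and below, are to be read against all genes. Of those, 66.6% had the higher and 33.4% the lower mean in RORasg/sg hearts, with a median of 0.41. In a list of other myosin chains and myosin-binding proteins, mostly of skeletal muscle and with the non-muscle chain Myh14 among them, 8 of 12 had the higher and 4 the lower mean in RORasg/sg hearts, with a median of 0.46. Myl1, a skeletal essential light chain, differed by 1.28 (SE 0.556), Myh1, a skeletal heavy chain, by 1.58 (SE 0.591) and Myh3, the embryonic heavy chain, by 0.87 (SE 0.613). Myl1 and Myh1 had the opposite sign, -0.52 and -0.34, on their other probes. Among 7 non-muscle and smooth muscle chains (median -0.71), 3 had the higher and 4 the lower mean. Myh9, a non-muscle heavy chain, differed by 1.10 (SE 0.40) and Myl9 by 1.13 (SE 0.503), while Myl12a differed by -1.87 (SE 0.602), without overlap of the groups, and Myl12b by -0.89 (SE 0.385) on one probe and 0.51 on the other.

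Of 15 genes of thick filament assembly and the M-band (median -0.038), 7 had the higher and 8 the lower mean. Myom1, which crosslinks thick filaments at the M-band, differed by -2.39 (SE 0.832) and read 5.47, 3.97, 1.24 and 0.82 in RORasg/sg hearts 1 to 4, against 5.32, 5.55, 5.63, 4.16 and 5.66 in WT hearts 1 to 5. RORasg/sg 2, 3 and 4 were below every WT heart for Myom1, as for Myh6. Trim55, a sarcomeric ubiquitin ligase, differed by 1.02 (SE 0.393), without overlap of the groups, and Fhl1 by 1.28 (SE 0.633).

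Of 14 genes of myosin phosphorylation (median -0.069), 7 had the higher and 7 the lower mean. Rock2, a kinase that inhibits myosin phosphatase, differed by -3.27 (SE 0.919), and Ppp1r12a, the targeting subunit of that phosphatase, by -2.42 (SE 0.763), clearing background in 3 RORasg/sg hearts and all 5 WT hearts. Mylk2, the skeletal myosin light chain kinase, differed by 1.46 (SE 0.702). Camk2d, a calcium-dependent kinase, differed by 1.0 (SE 0.506) on its brightest probe and by -4.08 and -2.32 on others.

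Of 46 regulators of cardiac myosin genes (median 0.033), 23 had the higher and 23 the lower mean. Srf, the serum response factor that drives many sarcomere genes, differed by -1.40 (SE 0.447), again without overlap. Sox6, a repressor of slow myosin genes in skeletal muscle, differed by -1.28 (SE 0.432), Nfatc3, a calcineurin-responsive factor, by -1.91 (SE 0.613) and Tbx20, a cardiac T-box factor, by -2.56 (SE 0.917). One further probe of Sox6 and one of Tbx20 had the opposite sign, 0.42 and 0.29. Of the 19 genes named from these 5 lists, 10 had the opposite sign in the 5 brighter arrays.

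The genes whose levels over the 9 arrays were most like those of Myh6 were AK043575, Nrd1, Usp13, Efnb3 and Pabpn1, with Pearson's r between 0.993 and 0.995. Those most like Myh7 were Bri3, Ppid, 0610040J01Rik, Odc1 and 1110032A03Rik (r between 0.913 and 0.953), and those most like Myl7 were Nhsl2, Fn1, Ppp1r16a, C1qtnf6 and BC006833 (r between 0.931 and 0.954). These values describe the same 9 arrays, whose brightness they share, and carry no test.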

How the data were processed

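Per the labels' protocols, 70 ng of total RNA per heart was amplified (NuGEN Ovation Pico WTA) and 5 ug of product labelled with Cy3. Per the file headers, Feature Extraction 12.0.0.7 read the spots of design 014868, whose grid names build mm9. Its deposited processed intensity has the background subtracted, and no scaling across arrays is recorded. The authors' value table held that same intensity for all 45018 features.

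From the tables, 758 spots flagged as outliers were dropped, none was saturated, and spots of a probe were averaged. A probe had to be well above background on 4 or more of the 9 arrays, and a gene was represented by its kept probe with the highest mean. Names came from accessions in a GRCm38.p6 table (28223 of 41174 probes). Its build differs from the grid, so coordinates are given only for the start windows and microRNAs, on GRCm38.p6. Groups were compared with limma 3.58.1 (eBayes with trend, Benjamini-Hochberg, threshold 0.05) in R 4.3.3, with data.table (version 1.17.8), and balances by exact permutation in Python 3.11.15, each adjusted as stated. Figures used matplotlib 3.10.9. The fit was tested on simulated data in which genes varied independently and both groups had the SD of the WT hearts. The wider spread of RORasg/sg hearts and differences shared across an array were not simulated. Precision is limited by how few arrays there are. Levels are log2 values computed here.

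The genes, lists and array division were chosen with earlier results of these data known. Named are every probe of the 8 genes, the 4 genes with the smallest p per pathway list, chamber markers, Rora and the 5 genes most like Myh6, Myh7 and Myl7. One gene that this rule names is not reported here. Replicate numbers did not pair the hearts (same-number correlations of deviations 0.046, -0.0064, -0.33 and 0.39).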

Additional observations from a re-analysis of the deposited data

Results flagged for a closer look

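Of 34 groups of hearts examined over the 14 probes of Myh6, Myh7, Myl2, Myl3, Myl4, Myl7, Mybpc3 and Rora and the 3 balances, 3 held a heart far from the rest, where chance gives about 1 in 20. All 3 were WT 4, the dimmer WT array. On Myh6 probe A_52_P117510 it read 4.62, with the nearest WT heart at 5.69, a gap of 0.756 of the whole range of the group. On Rora probes A_52_P652442 and A_51_P477779 it read 1.56 and 1.51, with the nearest WT hearts at 3.31 and 2.87. On the second Myh6 probe WT 4 (4.90) was within 0.033 of the other WT hearts.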

How the results depend on the processing

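Over all genes 1 gene passed in limma (3211 at an unadjusted p under 0.05). The count was 2 with quantile scaling, 3 unscaled, 9 with the replicate block, 15138 with array weights and 1189 in the brighter arrays. It was 0 with normexp, with probes above background on all arrays, with the mean of probes, with the slide block, in the dimmer arrays and within slide 1 or 2, and 0 to 10402 with 1 heart left out, the highest without RORasg/sg 1. Array weights called 6 of the 7 myosin genes, where 54.5% of genes were called. Replicate numbers did not pair the hearts, and the replicate block gave -1.08 for Myh6 minus Myh7, -2.61 for Myl2 minus Myl7 and -1.21 for Myl3 minus Myl4 and changed no call of the 7 genes. Leaving out 1 heart gave -2.58 to -0.33, -3.47 to -2.36 and -2.29 to -0.73 for these balances. Block and covariate fits of the balances were given no test here. With fewer hearts no balance passed after adjustment, though Myl2 minus Myl7 had the smallest exact p that the sizes allow. All of these were read as values. Myh6 minus Myh7 turned to 1.12 with brightness as covariate, 3.13 in the brighter arrays and 0.32 within slide 1. Myl2 minus Myl7 was -1.44 within slide 1, and Myl3 minus Myl4 was 0.70 and -3.12 within slides 1 and 2. Single genes changed sign in the brighter arrays for Myh6 (0.64), Myl3 (0.057), Mybpc3 (-0.50), Myl1 (-0.24), Mybphl (-0.65), Myh3 (-0.61), Myh9 (-0.099), Fhl1 (-0.50), Rock2 (0.060), Mylk2 (-0.27), Camk2d (-0.64), Nfatc3 (0.00070) and Tbx20 (0.32). With brightness as covariate Mybpc3 (-0.34), Mybphl (-0.00089) and Fhl1 (-0.0042) did so, and Myh6 was -1.06 rather than -2.74, and within slide 1 Myl3 (0.23), Myl4 (-0.46) and Myh3 (-0.15). Myl3 also turned on its second probe (0.31) and Camk2d with the mean of probes (-1.80). Mybpc3 turned with quantile scaling (-0.35), unscaled (-0.44) and in the dimmer arrays (-0.12), and ranged over -0.027 to 0.38 with 1 heart left out. The cause of these changes was not tested. The number of hearts and the brightness of their arrays limit all values.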

Other observations

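Mhrt, a long noncoding RNA transcribed from the Myh7 locus opposite to Myh7, was looked up after the values were seen and had 1 probe. It read 2.90, 2.74, 2.69 and 3.27 in RORasg/sg hearts 1 to 4, and 2.91, 3.21, 2.83, 4.03 and 2.89 in WT hearts 1 to 5, a log2 difference of -0.27 (SE 0.381, limma adjusted p = 0.660). RORasg/sg 1, the lowest heart for Myh7, was within the WT range for Mhrt. The labels do not say whether the labelled product keeps the strand, so sense and antisense RNA may not be told apart.

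Pabpn1, listed among the genes most like Myh6, is another gene of chromosome 14, and its 3 kept probes did not agree. A_51_P228916 differed by -3.84 (SE 1.28) and A_52_P869483 by -3.96 (SE 1.43), with RORasg/sg 3 and 4 lowest, while A_52_P743305 differed by 0.75 (SE 0.421).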
